A study of Homo sapiens with 12 samples.

Results

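Lipid droplets are cellular stores of triglyceride and steryl ester, and the genes described here encode proteins that coat them, break down their fat or carry the fatty acids that come and go. They are 10 genes chosen by name: the coat proteins PLIN2, PLIN3 and PLIN4, the droplet fusion protein CIDEC, the lipases PNPLA2 and LIPE, the related PNPLA3, the lipase inhibitors HILPDA and G0S2, and the fatty acid carrier FABP5. Each was found as a single gene among the 60675 genes of the count tables. They were measured by RNA sequencing in 2 established triple-negative breast cancer cell lines, MDA-MB-468 and HCC1187, in which an shRNA against the long non-coding RNA SOX9-AS1 (sh-SOX9-AS1) was set against an shRNA against the bacterial gene LacZ (sh-LacZ). Every line carried one or the other shRNA for 48 h, so no group was left untransfected, and MDA-MB-468 was grown in DMEM and HCC1187 in RPMI-1640. There are 3 libraries in each of the 4 groups: S1–S3 are the MDA-MB-468 controls, S4–S6 the MDA-MB-468 knockdown, S7–S9 the HCC1187 controls and S10–S12 the HCC1187 knockdown. The labels name neither the vector that carried the shRNA nor whether each library had its own culture, so p-values measure only the spread between these libraries.

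Droplet fat is broken down stepwise. PNPLA2 (adipose triglyceride lipase) takes the first fatty acid from a triglyceride with the help of its cofactor ABHD5, LIPE (hormone-sensitive lipase) acts mainly on the diglyceride, and MGLL on the monoglyceride. G0S2 and HILPDA bind and inhibit PNPLA2, HILPDA being a gene switched on under low oxygen by HIF transcription factors. PLIN2 and PLIN3 are the coat proteins found in most cells and limit access of lipases, PLIN4 and CIDEC are best known from fat cells, and PNPLA3 is a droplet protein whose gene responds to SREBP1, a transcription factor of fat synthesis. PLIN2 is known as a gene that rises with fatty acid supply through PPAR receptors.

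The depth was 6026376 to 10160040 counts per library in lane 1. Only that lane was used, so all counts and levels here are those of 1 lane. Levels are given as CPM, the usual depth-scaled read count taken over the plain library total, and levels of different genes are compared only per kilobase of gene length (RPKM, computed here from CPM and the deposited gene lengths). SOX9-AS1 itself stood at 2.54, 1.54 and 1.85 CPM in S7–S9 and at 1.33, 0.771 and 0.886 CPM in S10–S12 (log2 fold change −1.08, adjusted p = 0.0349 by edgeR's quasi-likelihood test). The MDA-MB-468 controls had 5.52, 6.70 and 5.95 CPM of it and the knockdown 5.04, 4.54 and 4.96 CPM, which did not pass with S4 (−0.30, adjusted p = 0.417) or without (adjusted p = 0.274). S4 stood apart from its group: across all genes it correlated at 0.9901, 0.9915 and 0.9950 with the controls S1–S3 but at 0.9756 and 0.9721 with S5 and S6. The deposited phenotype table of MDA-MB-468 names S1–S3, S5 and S6 and does not name S4, while the count table labels S4 as knockdown. Each MDA-MB-468 result is given with and without S4. Because S4 was singled out from these same data, p-values without it do not account for that choice and can be too small. The breast epithelial markers summed to 11559 to 11853 CPM in the MDA-MB-468 controls and to 379 to 388 CPM in the HCC1187 controls. EGFR alone gave 5477 to 5870 CPM of the first sum and 57.5 to 62.6 CPM of the second. In the HCC1187 controls the basal keratins KRT5 and KRT14 had at most 0.212 CPM, while KRT17, also basal, stood at 5.3, 10.5 and 12.1 CPM. The labels call both lines basal-like. The adipocyte markers ADIPOQ and LEP were at 0 in all 12 libraries. The 7 adipocyte markers together still summed to 12.8 to 15.9 CPM in the HCC1187 controls and to 16.3 to 18.3 CPM in its knockdown. LPL stood at 5.09 to 11.1 CPM and CFD at 3.35 to 6.65 CPM in that line. Of the leukocyte markers TYROBP was at 0 throughout and PTPRC reached at most 0.379 CPM. In MDA-MB-468, however, CD14 stood at 73.8 to 142 CPM, CSF1R at 14.9 to 23.7 CPM and MARCO at 1.24 to 8.51 CPM. In the MDA-MB-468 knockdown libraries the epithelial markers summed to 9088 to 12133 CPM, and none of 9 passed with S4. Without S4, 6 of 9 fell and none rose (66.7% passing, against 40.7% of all genes, 20.7% falling). The part of these markers in the members' results was not tested, and in bulk RNA fewer cells of a type and less RNA per cell cannot be told apart. The lines came in separate tables, so a line and its table or sequencing run cannot be told apart.

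Reference promoters show what lies in front of some of the members. A RefSeq promoter window (GRCh38.p14, 250 bases before to 50 after the transcript start, 300 bases in all) was matched for 7 of the 10 members, and was not matched for HILPDA, PNPLA3 and FABP5. Of these, PLIN2 and LIPE are printed because they passed in MDA-MB-468 once S4 was left out (neither did with S4), and PLIN3 as a second coat gene that passed in neither. Capitals mark the motifs searched on both strands: the HIF core ACGTG or GCGTG, the E-box CACGTG, which holds ACGTG on both strands, and the NF-Y box CCAAT. The windows are PLIN2 at chr9:19127443-19127742, PLIN3 at chr19:4867618-4867917, and the 2 starts of LIPE at chr19:42427339-42427638 and chr19:42423536-42423835, all on the minus strand and written 5′ to 3′.
PLIN2: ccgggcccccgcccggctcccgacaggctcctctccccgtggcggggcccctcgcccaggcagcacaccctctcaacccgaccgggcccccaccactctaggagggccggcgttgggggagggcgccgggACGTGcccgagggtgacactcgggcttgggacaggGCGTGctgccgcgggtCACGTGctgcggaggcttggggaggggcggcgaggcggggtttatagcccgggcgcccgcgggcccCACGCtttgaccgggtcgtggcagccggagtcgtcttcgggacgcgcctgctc
PLIN3: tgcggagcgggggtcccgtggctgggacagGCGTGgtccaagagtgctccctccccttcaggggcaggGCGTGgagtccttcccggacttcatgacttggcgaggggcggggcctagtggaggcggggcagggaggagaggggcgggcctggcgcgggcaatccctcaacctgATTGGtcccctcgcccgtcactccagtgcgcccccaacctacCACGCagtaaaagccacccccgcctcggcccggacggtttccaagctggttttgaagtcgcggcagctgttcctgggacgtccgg
LIPE, first start: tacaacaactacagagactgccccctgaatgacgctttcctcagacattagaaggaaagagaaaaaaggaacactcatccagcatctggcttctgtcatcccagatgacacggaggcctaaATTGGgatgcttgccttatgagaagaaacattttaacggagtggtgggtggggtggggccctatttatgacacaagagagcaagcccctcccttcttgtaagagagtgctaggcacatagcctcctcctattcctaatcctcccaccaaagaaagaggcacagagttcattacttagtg
LIPE, second start: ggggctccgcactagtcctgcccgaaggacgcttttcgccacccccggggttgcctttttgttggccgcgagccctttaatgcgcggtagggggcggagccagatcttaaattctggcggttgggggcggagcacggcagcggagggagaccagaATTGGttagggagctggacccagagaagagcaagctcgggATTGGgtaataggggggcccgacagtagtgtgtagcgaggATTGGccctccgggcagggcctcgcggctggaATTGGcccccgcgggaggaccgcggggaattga
The PLIN2 window held 3 ACGTG matches, at −120, −69 and −68 from the transcript start, the last 2 being the opposite strands of 1 CACGTG, and 2 GCGTG matches. Of 35116 promoter windows of this length 21.4% held ACGTG, 1.98% held it 3 or more times, 36.5% held GCGTG and 7.26% held CACGTG. PLIN3 held no ACGTG, 3 GCGTG and 1 CCAAT. The first LIPE window held 1 CCAAT and the second 4, all on the opposite strand (ATTGG as printed), at −95, −55, −15 and 18. CCAAT occurred in 34.6% of all windows and 4 or more times in 0.991%. The sterol element TCACNCCAC, found in 1.13% of windows, was in none of these 4 but in those of PNPLA2, at −153, and of 1 CIDEC start, at −101. The PPAR repeat, AGGTCA repeated after 1 base, in 0.0228% of windows, was in none of the members' windows. These matches describe letters of the reference and say nothing of binding.

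Among coats and inhibitors with more than a few counts in both lines, PLIN2 and HILPDA differed most between the control libraries. PLIN4, which had few counts in MDA-MB-468, is given below. In the MDA-MB-468 controls the order per length was PLIN3 at 28.7 ± 3.5 RPKM, PNPLA2 at 18.7 ± 0.99, PLIN2 at 18.1 ± 1.1, HILPDA at 8.23 ± 2.20, LIPE at 0.680 ± 0.116, PNPLA3 at 0.614 ± 0.190 and CIDEC at 0.212 ± 0.099 RPKM (SD, n = 3). PNPLA2 and PLIN2 were within their spread of each other, as were LIPE and PNPLA3, and CIDEC overlapped G0S2. G0S2, PLIN4 and FABP5 were below 0.1 RPKM on average, at 0.0925, 0.0424 and 0.0358, from 2, 7 and 2 counts in all 3 libraries. In the HCC1187 controls HILPDA stood first at 44.5 ± 10.4 RPKM, before PLIN3 at 22.8 ± 2.1, PNPLA2 at 15.8 ± 0.66, FABP5 at 15.6 ± 0.55, PNPLA3 at 5.35 ± 0.74 and PLIN2 at 2.73 ± 0.27 RPKM (SD, n = 3). PNPLA2 and FABP5 were within their spread there, and G0S2 at 0.712 ± 0.359, PLIN4 at 0.373 ± 0.1003, LIPE at 0.365 ± 0.050 and CIDEC at 0.0765 ± 0.0319 RPKM were the lowest, the first 3 of these being within their spread of each other.

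**Figure D1:**
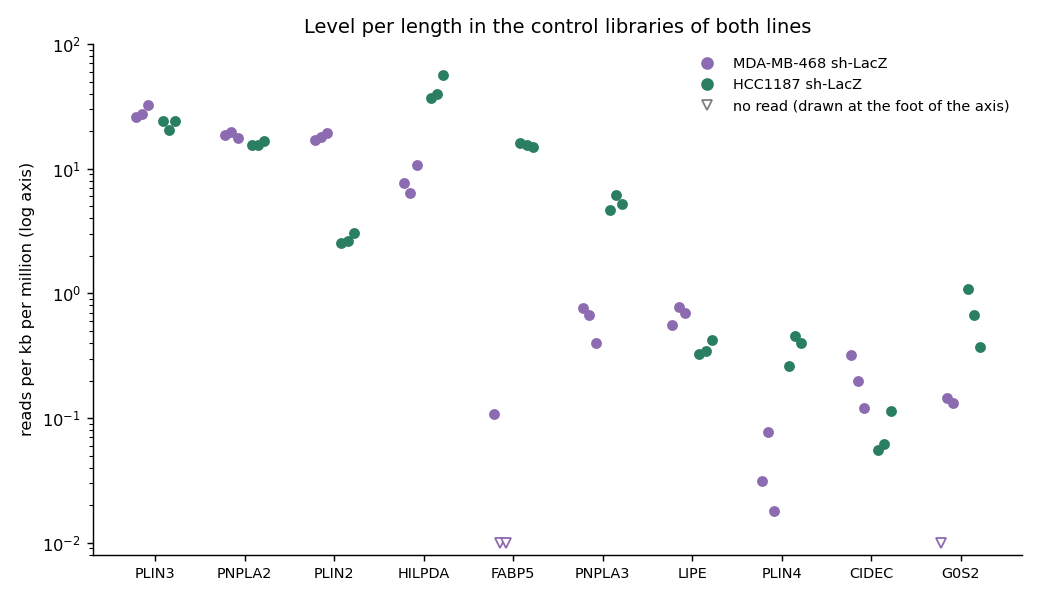
Levels per gene length (RPKM, log axis) of the 10 members in the 3 sh-LacZ libraries of each line, 1 point per library, with open triangles at the foot of the axis for libraries with no read. PLIN2 is higher in MDA-MB-468 and HILPDA, FABP5, PNPLA3 and PLIN4 are higher in HCC1187, with no overlap of libraries, while PLIN3 and PNPLA2 lie close together.

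All 8 members that could be tested between the control libraries passed, 4 higher in HCC1187 and 4 lower, in a comparison in which 84.1% of all genes tested passed. FABP5, which carries long-chain fatty acids through the cytosol, had 2, 0 and 0 counts in S1–S3 against 289, 251 and 262 in S7–S9. That is 28.5 to 30.6 CPM in HCC1187 and at most 0.204 CPM in MDA-MB-468, a ratio of 389 with a 95% counting interval of 107 to 3219 (adjusted p = 1.27e-15, edgeR). PLIN2 stood at 85.5, 89.8 and 96.3 CPM in S1–S3 and at 12.7, 13.1 and 15.2 CPM in S7–S9. It was 7.76-fold lower in HCC1187 (log2 fold change −2.96 ± 0.11 (SE), adjusted p = 1.53e-16, edgeR), and no library of one line came near the other. HILPDA differed the other way, with 15.9, 13.2 and 22.04 CPM in the MDA-MB-468 controls and 76.6, 82.9 and 116.7 CPM in those of HCC1187 (2.20 ± 0.16, adjusted p = 4.59e-11). PNPLA3 was also higher in HCC1187, at 14.9, 19.6 and 16.7 CPM against 2.45, 2.15 and 1.28 CPM (2.87 ± 0.22, adjusted p = 6.12e-11). Both sets of libraries were far apart for these genes.

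The more evenly expressed members differed less. PLIN3 stood at 71.0, 75.5 and 89.5 CPM in the MDA-MB-468 controls and at 65.6, 55.8 and 65.6 CPM in those of HCC1187 (−0.57 ± 0.10, adjusted p = 1.93e-05). PNPLA2 stood at 71.7, 75.2 and 67.7 CPM against 58.9, 59.5 and 63.5 CPM (−0.47 ± 0.08, adjusted p = 2.96e-05). LIPE stood at 2.86, 4.05 and 3.62 CPM against 1.70, 1.77 and 2.18 CPM (−1.11 ± 0.27, adjusted p = 0.000604). For all 3 the HCC1187 libraries lay below every MDA-MB-468 library. Scaling by library totals alone moved the median of all genes from 0.06 to 0.29 on the log2 scale, and PLIN3 and PNPLA2 then differed by −0.33 and −0.24 (adjusted p = 0.00378 and 0.0133), smaller but in the same direction. PLIN4 had 1 to 4 counts in S1–S3 and 65 counts in all in S7–S9, a ratio of 9.01 (95% counting interval 4.13 to 23.3, adjusted p = 7.85e-06). G0S2 and CIDEC were too low to test: G0S2 had 17 counts in the HCC1187 controls against 2 (ratio 8.25, interval 1.96 to 73.6) and CIDEC 4 against 11 (ratio 0.353, interval 0.0819 to 1.19, which includes no difference). These intervals cover counting error only.

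Ratios within a library show the same contrast. PLIN2 per PLIN3, per length, was 0.658, 0.650 and 0.589 in S1–S3 and 0.106, 0.129 and 0.127 in S7–S9, so PLIN2 was the lower of the pair in all 6 and by more in HCC1187. The inhibitor HILPDA per lipase PNPLA2 was 0.411, 0.323 and 0.603 in S1–S3 and 2.41, 2.58 and 3.40 in S7–S9. HILPDA transcripts were thus fewer than PNPLA2 transcripts in the MDA-MB-468 controls and more in those of HCC1187. With 3 libraries against 3, an exact permutation test cannot give a p below 0.10, so no test was made of these ratios.

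In MDA-MB-468 with all 3 knockdown libraries no member passed, in a comparison in which 1 of 13638 genes did, 0.00733%. Before adjustment 2554 of these genes had a p under 0.05, and DESeq2 put 282 past the threshold. Of the members, 6 could be tested. Without S4, 4 of the same 6 passed, 3 higher and 1 lower, where 40.7% of all 13947 genes passed. Leaving out S4 therefore changes the call of PNPLA3, LIPE, PLIN2 and HILPDA.

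PNPLA3 showed the largest change among the members. It stood at 2.45, 2.15 and 1.28 CPM in the controls S1–S3, at 2.88 CPM in S4, and at 26.5 and 27.5 CPM in S5 and S6. S4 lay just above the controls and S5 and S6 were about as high as each other, above every HCC1187 library too. The log2 fold change was 3.29 ± 0.74 (SE) with S4 (adjusted p = 0.205, edgeR) and 3.79 ± 0.21 without it, 13.8-fold (adjusted p = 2.82e-09). With S4 kept, PNPLA3 passed under DESeq2 (adjusted p = 0.0292), in a fit of all 12 libraries (0.0221) and without the filter on low counts (4.06e-20). PNPLA3 overlaps SAMM50 on the same strand, which had 399 to 760 counts per library, so reads over the shared stretch cannot be assigned with certainty.

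LIPE followed the same pattern at a smaller size. It stood at 2.86, 4.05 and 3.62 CPM in S1–S3, at 3.75 CPM in S4, and at 15.4 and 12.2 CPM in S5 and S6. S4 lay among the controls and S5 and S6 lay well above them. The log2 fold change was 1.61 ± 0.46 with S4 (adjusted p = 0.205, edgeR) and 2.01 ± 0.21 without it, 4.04-fold (adjusted p = 3.25e-06), and with S4 it passed under DESeq2 (0.0336), in the fit of all 12 libraries (0.0293) and without the filter (3.72e-06). LIPE per PNPLA2 was 0.0296, 0.0399 and 0.0397 in the controls, 0.0409 in S4, and 0.128 and 0.124 in S5 and S6, so the second lipase remained the scarcer of the pair by far. LIPE shares its locus with the antisense gene LIPE-AS1, which had 6 to 35 counts per library, and no source used here says whether the counting used strand.

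**Figure D2:**
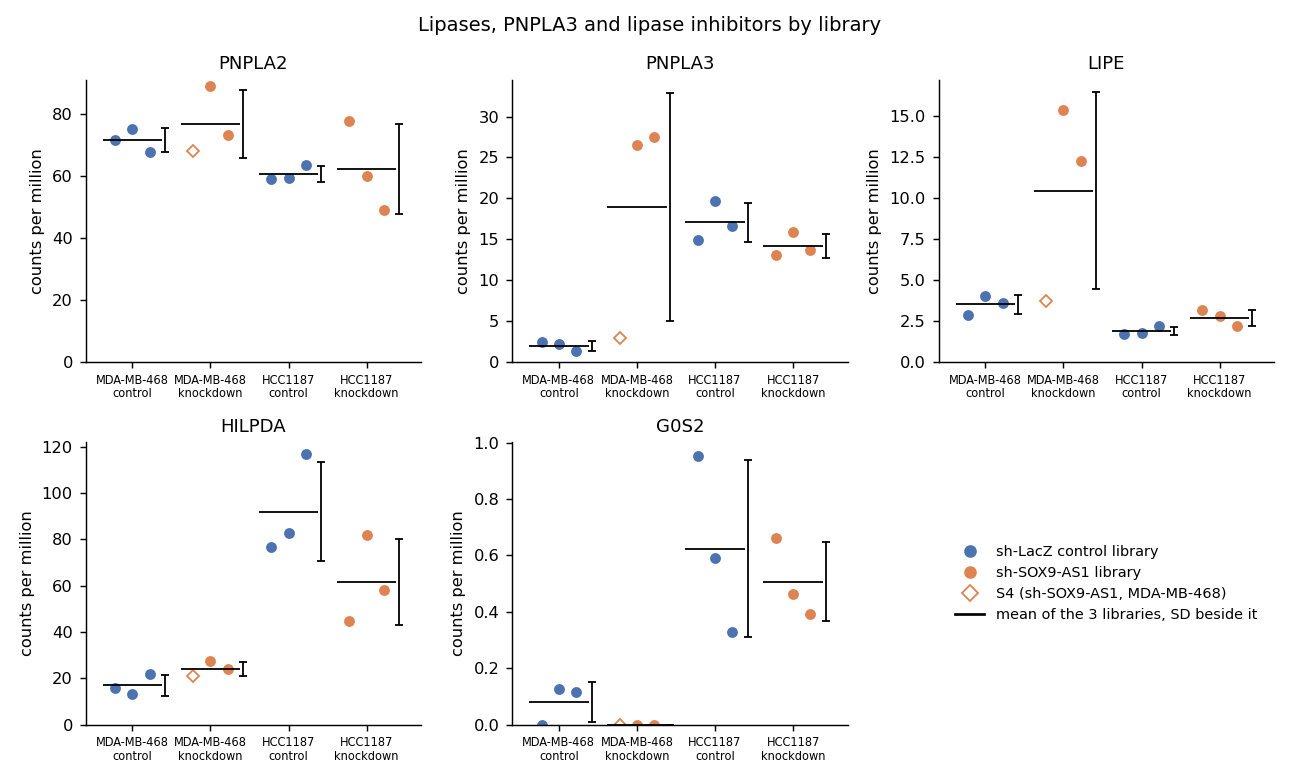
CPM of the lipases PNPLA2 and LIPE, of PNPLA3 and of the inhibitors HILPDA and G0S2, 1 point per library in each of the 4 groups, with the mean as a line and the SD as a bar beside it. PNPLA3 and LIPE are high in S5 and S6 (26.5 and 27.5 CPM, 15.4 and 12.2 CPM) and near the controls in S4, drawn as an open diamond.

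PLIN2 was the member that fell. It stood at 85.5, 89.8 and 96.3 CPM in S1–S3, at 100.6 CPM in S4, and at 47.7 and 47.8 CPM in S5 and S6. S4 was the highest of the 6 libraries and S5 and S6 the lowest, so the knockdown group lay on both sides of the controls. The log2 fold change was −0.45 ± 0.27 with S4 (adjusted p = 0.366, edgeR) and −0.90 ± 0.10 without it, 1.87-fold lower (adjusted p = 5.31e-06). PLIN2 per PLIN3 was 0.520 in S4 and 0.267 and 0.321 in S5 and S6, against 0.589 to 0.658 in the controls. PLIN3 itself stood at 106, 97.8 and 81.2 CPM in S4–S6 against 71.0 to 89.5 CPM, a change of 0.29 ± 0.14 (adjusted p = 0.284) or 0.21 ± 0.11 without S4 (adjusted p = 0.148). It passed when S3 was left out as well as S4 (0.33, adjusted p = 0.00912).

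HILPDA and PNPLA2 moved less. HILPDA stood at 15.9, 13.2 and 22.04 CPM in S1–S3, at 21.2 CPM in S4, and at 27.3 and 23.8 CPM in S5 and S6. S5 and S6 lay above every control and S4 below the highest of them. The log2 fold change was 0.52 ± 0.21 (adjusted p = 0.238, edgeR), and without S4 it rose 1.52-fold (0.60 ± 0.18, adjusted p = 0.0137). That call was lost when S2, S5 or S6 was left out as well (adjusted p = 0.0661, 0.148 and 0.0564). PNPLA2 stood at 68.0, 89.0 and 73.4 CPM in S4–S6 against 67.7 to 75.2 CPM in the controls, and did not pass with S4 (0.13 ± 0.12, adjusted p = 0.576) or without (0.21 ± 0.10, adjusted p = 0.112).

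The remaining 4 members were too low in MDA-MB-468 to be tested. PLIN4 had 1, 7 and 1 counts in S4–S6 against 2, 4 and 1 in S1–S3, and shares its locus on the opposite strand with HDGFL2, a gene of 429 to 1150 counts. CIDEC stood at 0.288, 0.505 and 0.964 CPM in S4–S6 against 0.613, 0.379 and 0.233 CPM, while its pseudogene CIDECP1 had 35 to 91 counts per library. FABP5 had 1, 1 and 0 counts in S4–S6. G0S2 had no count in S4–S6 and 2 in the controls, so no difference was detectable at this depth. In the knockdown libraries G0S2 had 11 counts in HCC1187. Its rate there was 3.58 times that of a floor of 3 counts over the MDA-MB-468 group. This ratio leaves out the counting error of the 11 counts and is no lower bound.

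In HCC1187 FABP5 rose and HILPDA fell. These were 2 of the 8 members tested, 25%, which is near the 22.8% of all 14970 genes that passed, so the count itself is no result about the members. HILPDA stood at 76.6, 82.9 and 116.7 CPM in S7–S9 and at 45.0, 81.9 and 58.0 CPM in S10–S12. S11 lay inside the range of the controls and the other knockdown libraries below it. It was 1.55-fold lower (−0.64 ± 0.16, adjusted p = 0.00679, edgeR). The call rested on the control S9, without which it was −0.42 (adjusted p = 0.104), and it was not made by DESeq2 (adjusted p = 0.188) or in the fit of all 12 libraries (0.0881). HILPDA per PNPLA2 was 1.07, 2.53 and 2.18 in S10–S12 against 2.41 to 3.40 in the controls, with S11 again among them.

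FABP5 stood at 30.6, 29.7 and 28.5 CPM in S7–S9 and at 42.98, 40.4 and 34.9 CPM in S10–S12. Every knockdown library lay above every control. It rose 1.27-fold (0.35 ± 0.11, adjusted p = 0.0251, edgeR), and DESeq2 made the same call (0.0455). The call was lost when S7, S8, S9, S10 or S11 was left out (adjusted p = 0.0633, 0.0763, 0.0794, 0.0720 and 0.0824), without the filter (0.0579) and in the fit of all 12 libraries (0.171), while the change remained between 0.29 and 0.36 in these. The 13 FABP5 copies listed in the tables had together at most 8 counts in a library, so few reads went to them.

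**Figure D3:**
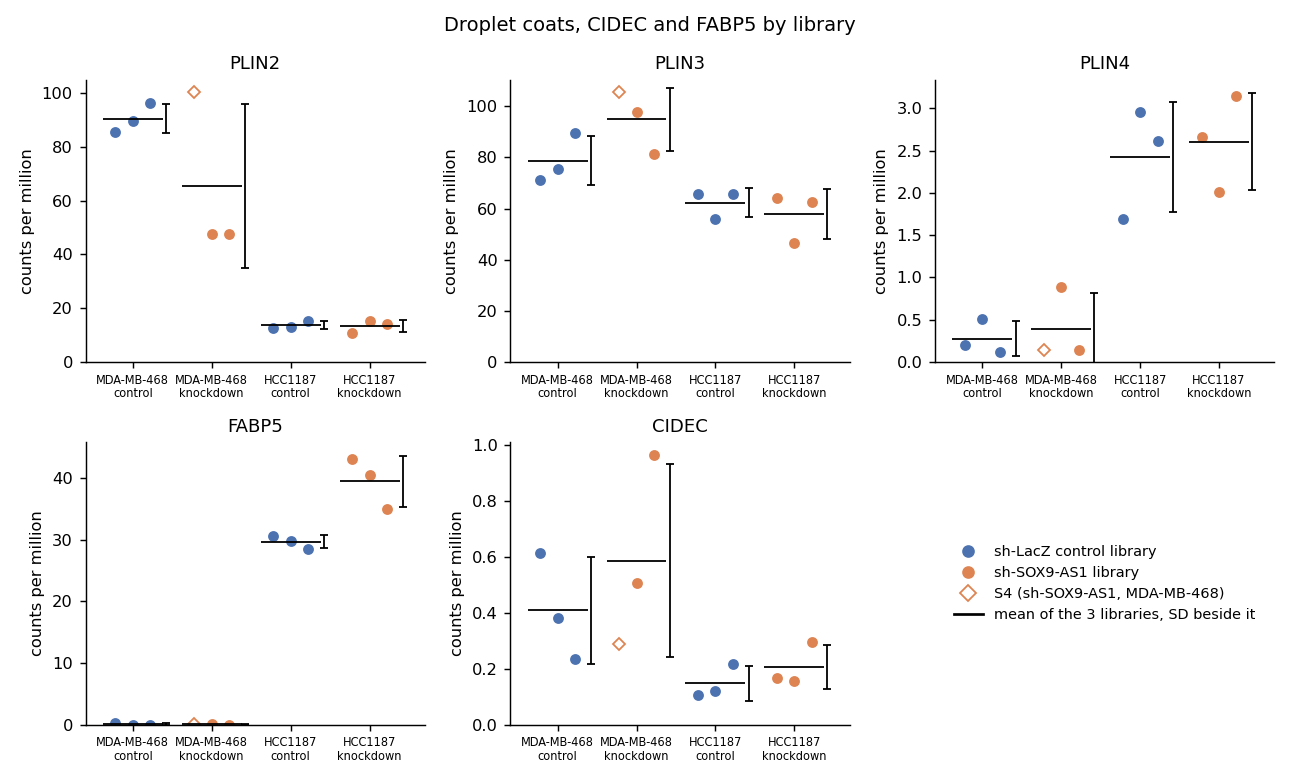
CPM of the coat genes PLIN2, PLIN3 and PLIN4, of FABP5 and of CIDEC, 1 point per library in each of the 4 groups, with the mean as a line and the SD as a bar beside it. PLIN2 is at 47.7 and 47.8 CPM in S5 and S6 and highest in S4 (open diamond), and FABP5 is higher in all 3 HCC1187 knockdown libraries (34.9 to 42.98 CPM) than in their controls.

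The members with the largest changes in MDA-MB-468 were not called in HCC1187. PNPLA3 stood at 14.9, 19.6 and 16.7 CPM in S7–S9 and at 13.1, 15.9 and 13.7 CPM in S10–S12 (−0.32 ± 0.15, adjusted p = 0.120, edgeR), with S11 inside the control range. LIPE stood at 1.70, 1.77 and 2.18 CPM against 3.15, 2.78 and 2.17 CPM (0.42 ± 0.29, adjusted p = 0.320), from 15 to 22 counts per library. LIPE per PNPLA2 was 0.0214, 0.0221 and 0.0255 in the controls and 0.0301, 0.0344 and 0.0327 in the knockdown, with no overlap, a ratio for which the smallest exact p is 0.10. PLIN2 stood at 10.8, 15.1 and 14.3 CPM in S10–S12 against 12.7 to 15.2 CPM (−0.08 ± 0.16, adjusted p = 0.762), both groups covering the same range. PLIN3 (−0.17 ± 0.11, adjusted p = 0.290), PNPLA2 (−0.03 ± 0.12, adjusted p = 0.865) and PLIN4 (0.09 ± 0.29, adjusted p = 0.855) did not pass either. G0S2 stood at 0.664, 0.463 and 0.394 CPM in S10–S12 against 0.954, 0.591 and 0.327 CPM in the controls, and CIDEC at 0.166, 0.154 and 0.295 CPM against 0.106, 0.118 and 0.218 CPM.

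**Figure D4:**
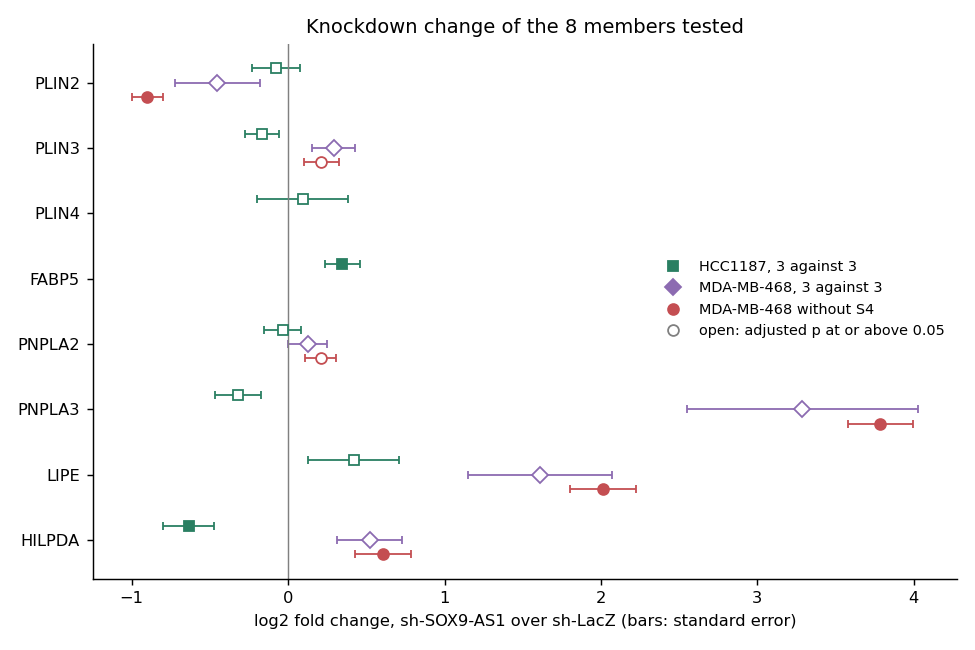
Log2 fold change of sh-SOX9-AS1 over sh-LacZ for the 8 members tested in at least 1 line, with the standard error as a bar, for HCC1187 (squares), MDA-MB-468 with all libraries (diamonds) and MDA-MB-468 without S4 (circles). Filled symbols have an adjusted p under 0.05 by edgeR: HILPDA is filled on opposite sides of 0 in the 2 lines, at −0.64 and 0.60, the latter without S4.

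Whether the lines differed in their response was tested directly, as the HCC1187 change minus the MDA-MB-468 change. With all 12 libraries only PNPLA3 passed of the 8 members tested (−3.60 ± 0.74, adjusted p = 0.0178, edgeR), where 3.75% of all 16328 genes passed. That call was narrowly lost when S1, S2, S3, S5, S8, S9 or S10 was left out, with adjusted p from 0.0503 to 0.0601 and changes from −3.81 to −3.29. HILPDA did not pass (−1.15 ± 0.33, adjusted p = 0.0662), though it did under DESeq2 (0.0223), without the filter (1.84e-06) and without S11 (0.0362). Without S4, 4 members passed where 25.6% of all genes did. These were PNPLA3 (−4.10 ± 0.26, adjusted p = 5.17e-12), LIPE (−1.59 ± 0.37, adjusted p = 0.00176), HILPDA (−1.24 ± 0.28, adjusted p = 0.00172) and PLIN2 (0.83 ± 0.18, adjusted p = 0.0013). For PLIN3 the difference was −0.38 ± 0.17 (adjusted p = 0.105) and for PNPLA2 −0.24 ± 0.17 (adjusted p = 0.334), so neither passed.

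Other genes of the same pathways were read in the same tests. No gene of any list below passed in MDA-MB-468 with all 6 libraries, so every MDA-MB-468 count that follows is without S4, and the median change of all genes tested was −0.00142 there and 0.0145 in HCC1187. The list of SREBP1 and LXR targets of fatty acid synthesis also held the regulators SREBF1, MLXIPL, NR1H3 and NR1H2. Of its genes, 10 of 13 tested, SREBF1 among them, rose in MDA-MB-468 and none fell (76.9% passing, against 40.7% of all genes). The median change was 1.43. SCD, the desaturase that makes oleate, stood at 163, 160 and 182 CPM in S1–S3, at 189 CPM in S4 and at 2497 and 2574 CPM in S5 and S6 (3.94). INSIG1, a sterol-regulated brake on SREBP, changed by 3.85, FADS2, a polyunsaturated fatty acid desaturase, by 2.73 and FASN, the fatty acid synthase, by 2.27. S5 and S6, the libraries high in PNPLA3, were also high in SCD, in a comparison in which 40.7% of all genes passed. Whether PNPLA3 changed through SREBP1 was not tested. In HCC1187, where PNPLA3 did not pass, 3 of 14 rose and 2 fell (35.7%, against 22.8% of all genes), with a median of 0.04. The risers included MLXIPL (0.71), a sugar-sensing activator of fat synthesis, and NR1H2 (0.62), an LXR receptor, and INSIG1 (−0.63) and the elongase ELOVL5 (−0.34) fell.

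The list next to HILPDA held HIF targets and also the HIF factors HIF1A and EPAS1. In HCC1187, 8 of 18 fell and none rose (44.4%, against 22.8% of all genes, 13.1% falling), with a median of −0.27. The largest falls were those of P4HA1, a collagen prolyl hydroxylase (−0.89), ANKRD37 (−0.81), PFKFB3, a regulator of glycolysis (−0.77), and LDHA, lactate dehydrogenase (−0.76). In MDA-MB-468, 11 of 18 rose and 4 fell (83.3%, against 40.7% of all genes), with a median of 0.46. PFKFB4 (1.42), VEGFA (1.29), BNIP3 (0.86) and PDK1 (0.80) had the largest rises. The targets that fell were EGLN1 (−0.52), PFKFB3 (−0.38) and SLC2A1 (−0.34). Both PFKFB3 and SLC2A1 also fell in HCC1187. These counts include HIF1A, which rose (0.73), and EPAS1, which fell (−0.22). The list's median against the control mean was highest among the controls in S3 and S9 (0.19 and 0.13), which were also the controls highest in HILPDA. Among the knockdown libraries of HCC1187 it was −0.23, −0.14 and −0.24 in S10–S12, least low in S11, the library highest in HILPDA. Within S7–S9 and within S4–S6 the list's median and HILPDA put the libraries in the same order. Within S10–S12 and within S1–S3 they did not. S12 had the lowest median but more HILPDA than S10 (58.0 against 45.0 CPM). S1 had a lower median than S2 (−0.101 against −0.085) but more HILPDA (15.9 against 13.2 CPM). A link between the list and HILPDA was not tested.

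The list of PPAR and fatty acid responsive genes also held the regulators PPARA, PPARD, PPARG, RXRA, PPARGC1A and CREB3L3. Of its genes tested, 5 of 11, RXRA among them, fell in MDA-MB-468 and none rose, with a median of −0.22. The share passing, 45.5%, was near the 40.7% of all genes, of which 20.7% fell and 20% rose. The count passing is therefore no result about the list, and its lean towards falls was not tested. ANGPTL4, a secreted inhibitor of lipoprotein lipase, stood at 22.6, 21.1 and 25 CPM in S1–S3, at 34.3 CPM in S4 and at 4.92 and 4.13 CPM in S5 and S6 (−2.31). Of the 6 libraries S4 was the highest in ANGPTL4 and S5 and S6 the lowest, as for PLIN2. A link of PLIN2 with the genes of this list was not tested. PDK4, which holds back glucose oxidation, changed by −2.26, CPT1A, which admits fatty acids to mitochondria, by −1.06 and the receptor partner RXRA by −0.53. In HCC1187 none of 11 fell and 2 rose, CPT2 (0.71) and ACADVL (0.31), both of mitochondrial fatty acid oxidation, a share of 18.2% against 22.8% of all genes.

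**Figure D5:**
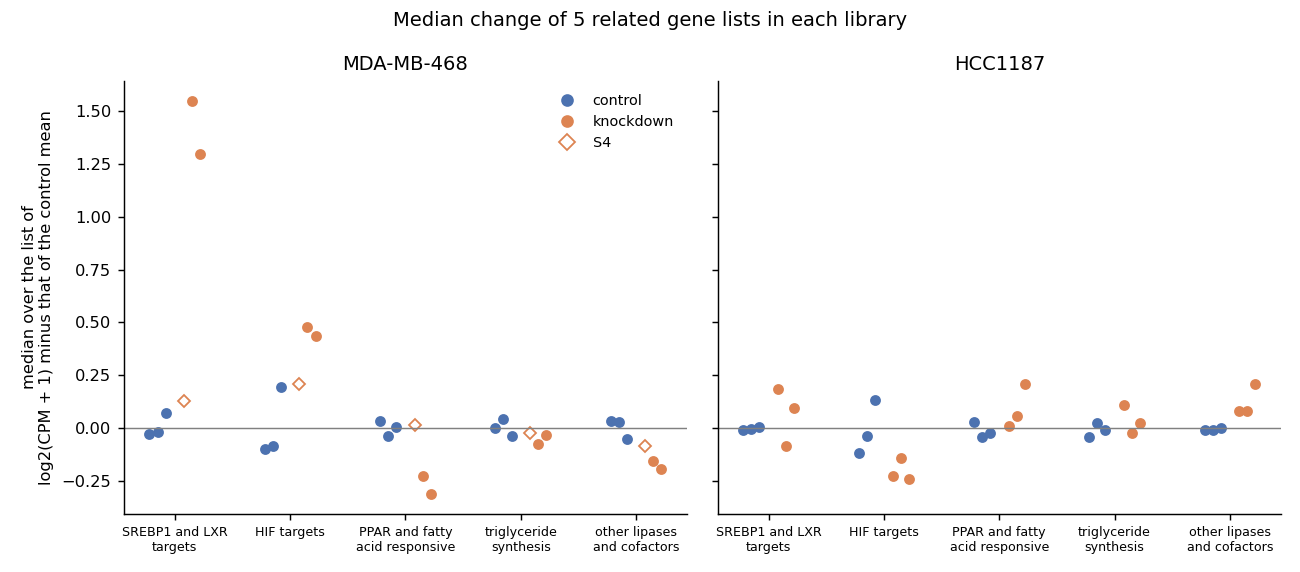
Median over each gene list of log2(CPM + 1) minus that of the control mean of the line, 1 point per library, for the SREBP1 and LXR, HIF, PPAR, triglyceride synthesis and lipase lists in MDA-MB-468 (left) and HCC1187 (right). The SREBP1 and LXR list is at 1.55 and 1.30 in S5 and S6 and at 0.13 in S4 (open diamond), and the HIF list is at 0.21, 0.48 and 0.44 in S4–S6 with control S3 at 0.19, and at −0.23, −0.14 and −0.24 in S10–S12 with controls S7 and S8 at −0.12 and −0.04.

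Of the other coat and droplet-binding genes, 4 of 8 tested rose in MDA-MB-468 and 1 fell (62.5%, against 40.7% of all genes), with a median of 0.38: METTL7A (1.91), PLIN1 (1.69), the main coat of fat cells, LDAH (0.62) and VPS13C (0.45) rose. PLIN1 stood at 1.43, 1.14 and 1.75 CPM in S1–S3 and at 2.59, 4.42 and 4.82 CPM in S4–S6. The 7 adipocyte markers, PLIN1 among them, summed to 1.39 to 2.33 CPM in S1–S3 and to 2.88 to 5.92 CPM in S4–S6, with ADIPOQ, LEP, FABP4 and LPL at 0 in all 6. In HCC1187, 3 of 12 fell and none rose, with a median of 0.10. The share of 25% was near the 22.8% of all genes, 13.1% falling. HSD17B11 (−0.52), RAB18 (−0.42) and FAF2 (−0.28) fell. PLIN5, which ties droplets to mitochondria, was too low to test in MDA-MB-468 and did not pass in HCC1187 (0.63 ± 0.35, adjusted p = 0.207).

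Of the other lipases and their cofactors, 3 of 13 rose and 4 fell in MDA-MB-468 (53.8%, against 40.7% of all genes), with a median of −0.15. CES1 (−1.08), ABHD6 (−0.74) and the monoglyceride lipase MGLL (−0.45) fell, and PNPLA8 (0.83) and the lysosomal lipase LIPA (0.72) rose. In HCC1187, 3 of 13 rose and none fell, with a median of 0.09. The share of 23.1% was at the background of 22.8%, 9.78% rising. PNPLA4 (1.16), LPL, lipoprotein lipase (0.56), and ABHD6 (0.50) rose. ABHD5, the cofactor of PNPLA2, stood at 40.4, 38.3 and 30.3 CPM in S1–S3 and at 24.3, 34.1 and 37.6 CPM in S4–S6, and like PNPLA2 did not pass in either line. Of the triglyceride synthesis genes, 6 of 19 rose and 5 fell in MDA-MB-468 (57.9%, against 40.7% of all genes), with a median of −0.04. LPIN1, which makes diglyceride (1.97), and the acyl-CoA synthetases ACSL4 (1.70) and ACSL1 (1.53) rose, and GPAT3 (−2.57, from at most 2.28 CPM) and the final acyltransferase DGAT2 (−0.73) fell, while DGAT1 did not pass (−0.22 ± 0.14, adjusted p = 0.233). In HCC1187 1 of 17 rose, AGPAT1 (0.28), and 3 fell, led by the sterol acyltransferase SOAT1 (−0.48), with a median of −0.07 and a share passing of 23.5%, again near the background.

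The genes whose pattern over the 12 libraries was most like that of each member were found by Pearson's r of log2(CPM + 1) after removal of each line's mean, among 11960 genes with a mean of at least 5 CPM. The points share their libraries and depth, and r is a description. For PNPLA3 they were FDFT1 (r = 0.990), CYYR1 (0.986) and S100A7A (0.985). For PLIN2 they were POLR1E (0.978), LOXL3 (0.975) and S100P (0.973), and for HILPDA LRRFIP1 (0.958), FAM162A (0.931) and ANKRD37 (0.930). PLIN3 was most like ENKD1 (0.961), PNPLA2 like SCAND1 (0.912) and FABP5 like PODXL2 (0.933). LIPE, PLIN4, G0S2 and CIDEC were below that mean.

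The members' genes lie on 8 chromosomes of GRCh38 (GENCODE v29) and all are annotated as protein-coding. PLIN2 spans chr9:19108375-19149290 and LIPE chr19:42401507-42427426, both on the minus strand. PLIN3, at chr19:4838341-4867768, and PLIN4, at chr19:4502180-4518465, are near each other on the minus strand of chromosome 19. PNPLA3 spans chr22:43923739-43964488, PNPLA2 chr11:818902-825573 and HILPDA chr7:128455849-128458418, all on the plus strand. G0S2 spans chr1:209675420-209676388 on the plus strand and CIDEC chr3:9866711-9880254 on the minus strand.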

How the data were processed

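RNA from both lines was sequenced from a stranded, paired-end mRNA library kit, per the labels' protocols. The submitters' processing notes name Trimmomatic 0.39, HISAT2 2.1.0 and featureCounts 2.0.0 with GRCh38; no source used here gives their parameters, strand setting or annotation release. The authors deposited unnormalized read counts per gene and lane, with gene lengths. Lane 1 of each library was used, and 24 of the 36 count columns were not. Each group has more columns than samples, and the columns carry no replicate number, so no more columns than samples were taken. The columns do carry the library number with the lane. Lanes could have been summed by that number but were not. Groups come from the sample names in the columns; the word BLANCO in knockdown columns is unexplained. All 12 libraries were kept, and each MDA-MB-468 fit was repeated without S4. Its counts resemble the controls, and the deposited phenotype table does not name it. S4 was singled out by earlier results of these same data. The p-values without S4 do not account for that choice and can be too small.

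Here edgeR 4.0.16 (R 4.3.3) tested all genes with its quasi-likelihood test after filterByExpr (minimum count 10, total 15) and TMM scaling, with Benjamini-Hochberg adjustment and a threshold of 0.05. Each line was fitted alone, the controls of both lines together, and the interaction over 12 libraries. The knockdown, control and interaction comparisons share control libraries. CPM uses plain library totals, and standard errors come from the F statistic. The scripts were tested on simulated data. Alternatives were DESeq2 1.42.0, other scalings, no filter, a joint fit and leaving out libraries; those combined with the loss of S4 were chosen after seeing the data. The members, all of which are named, and the gene lists were chosen with earlier results of these data known. From a list, up to 4 passing genes with the largest change per comparison could be named, plus ABHD5, MGLL, DGAT1, DGAT2, PLIN1 and PLIN5, and SOX9-AS1 as the target. Regulators counted within a list of targets are named as well, as are the HIF targets that fell in MDA-MB-468 without S4. Which of the listed genes to print was picked after the values were seen.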

Additional observations from a re-analysis of the deposited data

Results flagged for a closer look

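The response of some members to the knockdown differed between the lines by the interaction test of edgeR, given as the HCC1187 change minus the MDA-MB-468 change on the log2 scale. PNPLA3 differed by −3.60 with all 12 libraries (adjusted p = 0.0178) and by −4.10 without S4 (adjusted p = 5.17e-12). Without S4, LIPE differed by −1.59 (adjusted p = 0.00176), HILPDA by −1.24 (adjusted p = 0.00172) and PLIN2 by 0.83 (adjusted p = 0.0013). PNPLA3 and LIPE were higher in S5 and S6 than in S4 and the MDA-MB-468 controls, HILPDA fell in HCC1187 and rose in MDA-MB-468 without S4, and PLIN2 fell in S5 and S6 and overlapped its controls in HCC1187.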

How the results depend on the processing

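In the control comparison all 8 tested members passed in the same direction under all alternatives run. In HCC1187, 2 members passed, but 1 under DESeq2, 1 without the filter, 0 in the fit of all 12 libraries and 0 to 2 when 1 library was left out. In MDA-MB-468, 0 passed with S4, but 2 each under DESeq2, without the filter and in the fit of all 12 libraries, and 0 to 4 when 1 library was left out, the 4 being without S4. Without S4, 3 to 5 passed when a further library was left out. For the difference between the lines 1 passed, but 2 under DESeq2, 2 without the filter and 0 to 4 when 1 library was left out. Changes near 0 turned sign, none of them past the threshold: in HCC1187 PLIN2 without S9 (0.016) or S10 (0.044), with a range of −0.184 to 0.044 over the libraries left out; PLIN4 without S7 (−0.131) or S12 (−0.110), range −0.131 to 0.246; and PNPLA2 with library totals (0.025), without S9 (0.008) or S12 (0.120), range −0.216 to 0.120. For the difference they were PLIN4 without S5 (0.926), range −1.172 to 0.926; FABP5 without S1 (−2.558) or S6 (−0.379), range −2.558 to 0.619; and PNPLA2 without S12 (0.000), range −0.322 to 0.000. FABP5 and PLIN4 there rest on few MDA-MB-468 counts. Over all genes the number passing also moved: in HCC1187 from 3418 to 1499 in the fit of all 12 libraries and to 2213 without S8; in MDA-MB-468 from 1 to 282 under DESeq2, 887 in the fit of all 12 and 1441 without the filter; there without S4 from 5676 to 3675 and 3422 when S5 or S6 was also left out; and for the difference from 613 to 1036 under DESeq2, 1415 without the filter and 129 (without S2) to 4300 (without S4). Scaling by library totals moved the share of rises among genes passing from 42.8% to 57.7% in HCC1187, from 33% to 46.9% for the difference and from 48.6% to 59.2% for the difference without S4. The cause of the other shifts was not tested. No paired analysis was possible because the count columns carry no replicate number. Summing the lanes was not run, since the other lanes were not used here. Depth limits G0S2, CIDEC and PLIN4, with at most 9, 7 and 32 counts in a library from the 1 lane used.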

Other observations

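Beyond the members, the lines also differed in other genes of fat breakdown. In the control libraries CES1, a carboxylesterase, stood at 16.8 to 23.2 CPM in MDA-MB-468 and at 0 in HCC1187, while LPL, lipoprotein lipase, was at 0 in MDA-MB-468 and at 5.09 to 7.08 CPM in HCC1187. MGLL, the monoglyceride lipase, stood at 92.7 to 133 CPM in MDA-MB-468 and at 7.63 to 8.99 CPM in HCC1187. DGAT2 stood at 29.2 to 36.9 CPM against 3.90 to 5.01 CPM, and DGAT1, the other enzyme of the final step of triglyceride synthesis, at 19.4 to 24.0 CPM against 43.9 to 54.6 CPM.

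Of the other fatty acid binding and uptake genes, 2 of 5 tested rose in HCC1187 (40%, against 22.8% of all genes), SLC27A1 (0.55 ± 0.16, adjusted p = 0.0160 by edgeR) and SLC27A4 (0.48 ± 0.11, adjusted p = 0.00288). In MDA-MB-468 without S4, 3 of 6 rose and 1 fell (66.7%, against 40.7% of all genes). SLC27A1 rose there too (0.53 ± 0.14, adjusted p = 0.00708), and SLC27A4 fell (−0.51 ± 0.11, adjusted p = 0.00197), a difference between the lines of 1.00 ± 0.17 (adjusted p = 6.76e-05). FABP4, the carrier of fat cells, reached at most 0.218 CPM in any library.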
